A study of Camellia sinensis with 9 samples.

Results

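The theanine list of the study assigns 5 unigenes to AIDA, alanine decarboxylase, the enzyme that supplies ethylamine for theanine synthesis. A unigene is a transcript sequence assembled without a reference genome. The 5 AIDA unigenes were taken from that list by their number and all 5 were found among the 179951 unigenes of the table. They were unigene132868, unigene81677, unigene89828, unigene4834 and unigene37160. All plants belonged to the tea cultivar ‘Anji Baicha’ (Camellia sinensis), an albino type that lacks full leaf colour for part of the season, and all were 4 years old. The groups were yellow-green leaves (YG), which were the first leaves of the new shoots, white leaves (W), which were the second or the third leaves taken 14 days later, and re-greened leaves (G), which were the fifth or the sixth leaves taken 38 days after the YG collection. Each stage had 3 RNA-seq libraries from different plants, 9 in all. Leaf stage, leaf position, collection date and temperature differed together and cannot be told apart. The deposited table holds 1 value per unigene and stage, so no difference given here could be set against the spread between plants and none carries a p-value. The paper itself compared stages with a t-test over the 3 libraries of each, which cannot be repeated from these values. It reported unigene132868 and unigene81677 as significantly up-regulated in YG, and unigene89828, unigene4834 and unigene37160 in G. The unit is FPKM, fragments counted per length of the unigene and scaled to the number of mapped fragments, and levels of different unigenes can be set side by side on this per-length scale.

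Theanine, the amino acid behind the umami taste of tea, is made from glutamate and ethylamine by theanine synthetase (TS), a relative of glutamine synthetase (GS). Glutamate is supplied by glutamate synthase (GOGAT), and ethylamine comes from the decarboxylation of alanine. Theanine is made mostly in roots and carried to the young shoots. The study named the AIDA unigenes by similarity, since they were annotated as arginine decarboxylases with domains resembling those of an alanine decarboxylase. Arginine decarboxylase converts arginine into agmatine, the start of a plant route to putrescine and other polyamines. The tea alanine decarboxylase characterised since is a relative of plant serine decarboxylases. Enzyme activity was not measured in these data, and the values below describe transcripts that carry the AIDA label.

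The sequences used for the AIDA unigenes were the PCR primers designed to amplify unigene37160 and unigene89828. They are shown because they are the only sequences available here for AIDA unigenes. Whether they match these transcripts alone was not tested. Each is written 5′ to 3′, and the capitals mark its last 5 bases, the 3′ end that the polymerase extends.
unigene37160 sense: tgtagttcgtaagggtgagtTAGGG
unigene37160 anti-sense: tttaggtttttggtgtgtaGGTGG
unigene89828 sense: tattggtgttttagtggttcGTTTG
unigene89828 anti-sense: cctgcttcttacatcttgttTCATC
The primers of unigene37160 are 25 and 24 nt long with a GC content of 48% and 41.7%, and both primers of unigene89828 are 25 nt long with 36% and 40% GC. The longest run of bases shared between a primer of unigene37160 and a primer of unigene89828 was 7 nt, between the anti-sense primer of unigene37160 and the sense primer of unigene89828. No primers were found for the other 3 AIDA unigenes in the study's primer list.

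All 5 AIDA unigenes were well expressed at every stage. Their FPKM lay between 7.80 and 55.3, above that of 92.3% to 99.4% of the 78868 unigenes with an FPKM of 1 or more in any stage, the set used for all counts. None was listed at 0 and each passed this filter in every stage, so none entered through a single high stage. The AIDA unigenes followed different courses. In unigene132868 and unigene81677 the FPKM was highest in YG and lowest in G, whereas in unigene89828, unigene4834 and unigene37160 it was lowest in W and highest in G. As leaves are mixtures of cell types, fewer cells of a type and less RNA per cell cannot be told apart in these values.

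**Figure D1:**
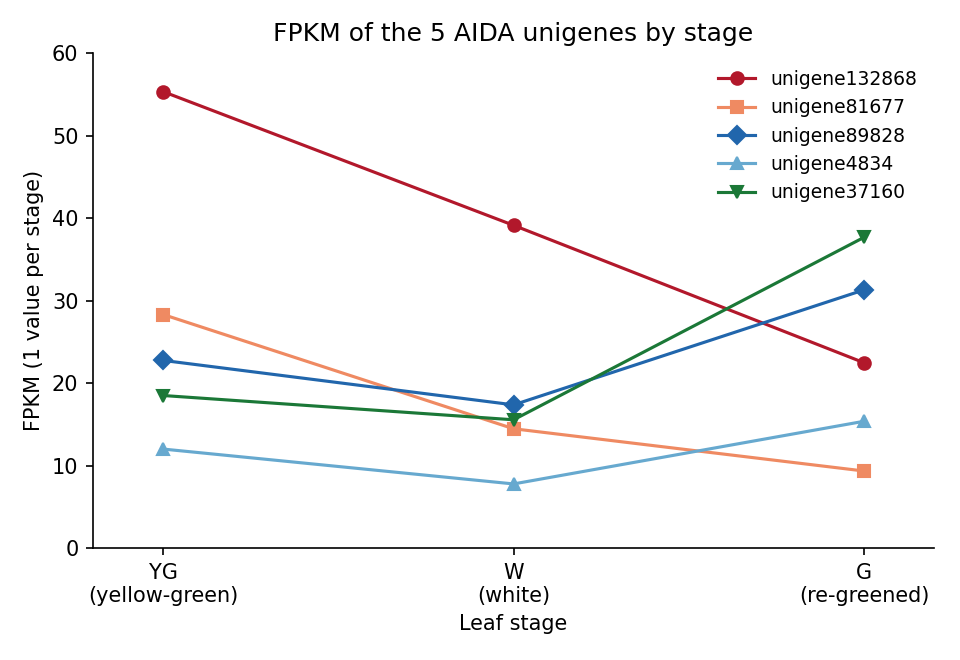
FPKM of each AIDA unigene (y axis, from 0) at the YG, W and G stages (x axis), with 1 point per stage and no error bars because the deposited table holds 1 value per stage. The lines of unigene132868 and unigene81677 run downwards at both steps, and those of the other 3 unigenes dip at W and end above their YG value.

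Among the unigenes highest in YG, unigene132868 was the most abundant AIDA unigene in YG and in W. It had an FPKM of 55.3 at YG, 39.1 at W and 22.5 at G, so that the G value was 0.406 times the YG value. Changes are given here as differences of log2(FPKM + 1), a scale that understates the change of weak unigenes. On this scale unigene132868 changed by -0.49 at the first step (W minus YG), by -0.77 at the second (G minus W) and by -1.26 over both (G minus YG). Even in G, its lowest stage, it was above 97.6% of the unigenes counted.

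The values of unigene81677 were an FPKM of 28.3 at YG, 14.5 at W and 9.36 at G. Its G value was 0.331 times its YG value and the change over both steps was -1.50. As a ratio of the highest to the lowest stage, 3.03, this was the widest range among the 5 unigenes, although unigene132868 and unigene37160 spanned more FPKM. Its larger step came first, at -0.92 against -0.58 at the second, the reverse of unigene132868. It was the second most abundant AIDA unigene in YG and the least abundant in G.

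Among the unigenes highest in G, unigene37160 changed most, with an FPKM of 18.5 at YG, 15.6 at W and 37.7 at G. W and YG were close, with a W value of 0.841 times the YG value. Nearly the whole change lay at the second step, where the G value was 2.42 times the W value and the log2 difference was 1.22. It was the most abundant AIDA unigene in G. Its G value was 2.04 times the YG value, while the difference of 0.99 on the log2(FPKM + 1) scale was just short of the 2-fold line. With a pseudocount of 0.1 in place of 1 this difference was 1.02, and with each stage scaled to the same total it was 1.03.

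The values of unigene89828 were an FPKM of 22.8 at YG, 17.4 at W and 31.3 at G. Its changes were -0.37 at the first step and 0.81 at the second, which left G above YG by 0.44. In unigene4834, the weakest AIDA unigene in YG and W, the values were 12.0 at YG, 7.80 at W and 15.4 at G. Its changes were -0.57 and 0.90 at the steps and 0.33 over both. These unigenes differed in level but had nearly the same course.

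At the first step, 0 of the 5 AIDA unigenes were 2-fold or more higher in W than in YG and 0 were 2-fold or more lower. Over all 78868 unigenes counted, 11.4% were higher and 9.11% lower by this measure. All 5 were nevertheless below their YG value in W, with log2 changes between -0.92 and -0.24 and a median of -0.49, where 46.5% of all unigenes counted were below and the median was 0.00. At the second step, 1 AIDA unigene, unigene37160, was higher in G by this measure and 0 were lower, beside 10.2% and 11.8% of all unigenes. The AIDA median at this step was 0.81. Over both steps, 0 AIDA unigenes passed the line of 1 on the log2(FPKM + 1) scale as higher in G than in YG and 2, unigene132868 and unigene81677, passed it as lower, beside 15.1% and 14.2% of all unigenes. The count of 0 became 1, unigene37160, with a pseudocount of 0.1 or with each stage scaled to the same total. The 3 comparisons share stages, and the change over both steps is the sum of the changes at each.

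Changes of this size were common in the table. Among all unigenes counted, 5.41% had a G value at least as far below YG as that of unigene81677, and 8.52% at least as far below as that of unigene132868. A G value at least as far above W as that of unigene37160 was found in 6.84%. In the 15174 unigenes that reached an FPKM of 5 in any stage, which are closer to the AIDA unigenes in level, these shares were 10.4%, 13.4% and 11.2%. Of that set, 24.4% were higher and 17.3% lower in G against YG by the 2-fold measure.

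Summed over the 5 unigenes, AIDA reached an FPKM of 137 at YG, 94.3 at W and 116 at G. The sum thus varied less than any of its members, by 1.45 times between its highest and lowest stage against 1.80 to 3.03 times for single unigenes. Its log2 change was -0.53 at the first step, 0.30 at the second and -0.23 over both. The makeup of the sum differed more. In YG, unigene132868 held 40.4% of it, followed by unigene81677 with 20.7%, unigene89828 with 16.6%, unigene37160 with 13.5% and unigene4834 with 8.78%. In W, unigene132868 held 41.5%, and unigene89828, unigene37160 and unigene81677 were close to each other with 18.4%, 16.5% and 15.3%. In G, unigene37160 held 32.4% and unigene89828 26.9%, ahead of unigene132868 with 19.3%, unigene4834 with 13.2% and unigene81677 with 8.06%.

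**Figure D2:**
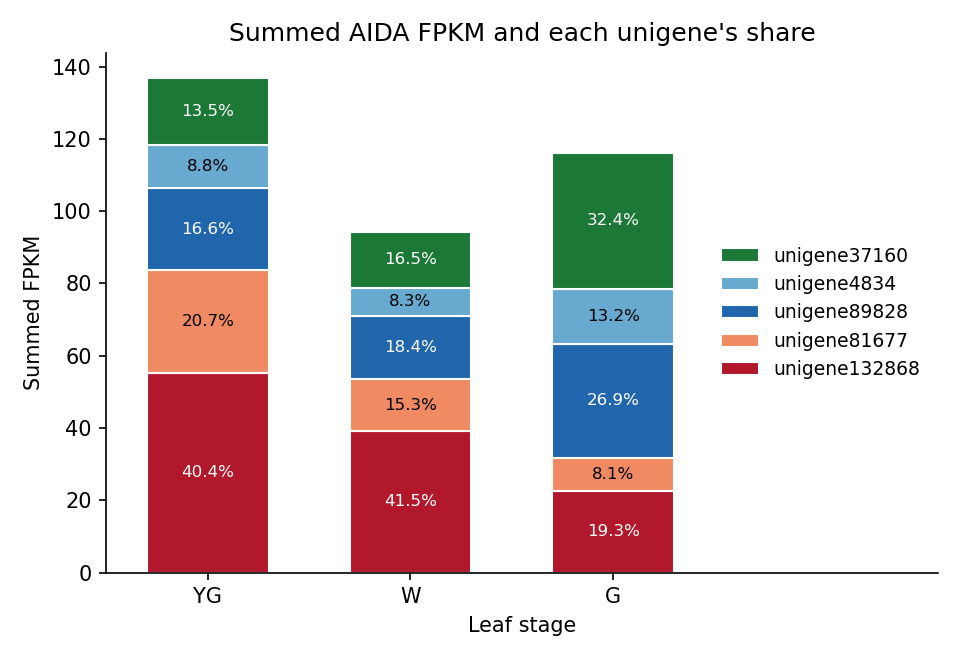
Summed FPKM of the 5 AIDA unigenes (y axis, from 0) at the YG, W and G stages (x axis), with each unigene's percentage of the sum written in its segment. The bars reach 137, 94.3 and 116, and the segments of unigene132868 and unigene81677 at the bottom shrink from stage to stage.

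Added up by course, unigene132868 and unigene81677 had 83.6 FPKM at YG, 53.6 at W and 31.8 at G, which was 61.1%, 56.8% and 27.4% of the AIDA sum. The other 3 unigenes had 53.3, 40.7 and 84.4 FPKM at these stages, so that they held 72.6% of the sum in G. This grouping was made from the values themselves and describes them. How reads shared by similar unigenes were divided is not given in the sources used here, and its part in these shares was not tested. Whether some of these unigenes are pieces of the same transcript was not tested either. Such pieces would be counted more than once in a summed FPKM.

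Likeness of course was measured as the distance between the changes of a pair of unigenes at the 2 steps on the log2(FPKM + 1) scale. The nearest AIDA pair was unigene89828 and unigene4834, at a distance of 0.21. The 4 pairs with the same highest stage were 0.21 to 0.47 apart, and the 6 pairs with different highest stages were 1.50 to 2.01 apart. The highest stage is read from the same values as the distances, so this gap is largely built in. The order YG, W, G from high to low, as in unigene132868 and unigene81677, was shared by 21.7% of all unigenes counted. The order G, YG, W, as in the other 3, was shared by 11.1%. Within a distance of 0.25 lay 1401 further unigenes for unigene132868, 852 for unigene81677, 1287 for unigene89828, 746 for unigene4834 and 1140 for unigene37160, which is 0.946% to 1.78% of the table counted. With 3 stages, such likeness is a coarse description.

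**Figure D3:**
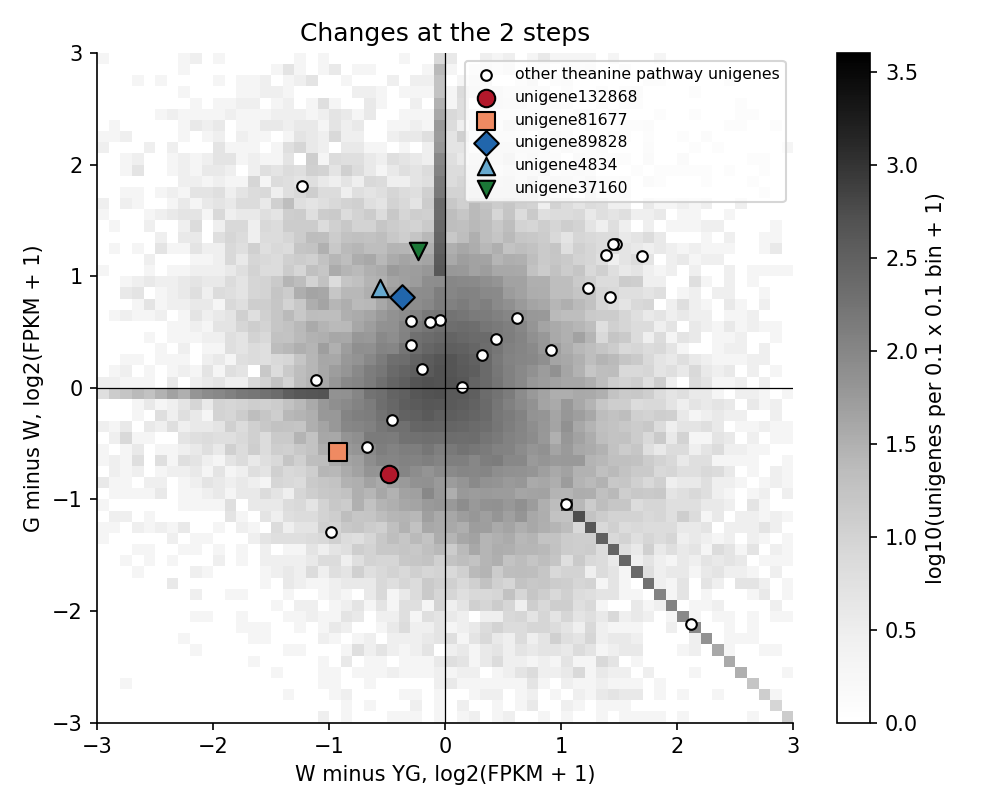
Change of log2(FPKM + 1) at the first step (W minus YG, x axis) and the second (G minus W, y axis). Grey squares give the number of all unigenes counted per bin on a log10 scale (533 of the 78868 lie outside the axes), open circles the other theanine pathway unigenes that passed the filter, and coloured symbols the AIDA unigenes. All 5 AIDA unigenes lie left of 0 on the x axis, 3 above and 2 below 0 on the y axis, and the narrow dark lines hold mostly unigenes listed at 0 in 2 of the 3 stages.

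The other theanine pathway list holds 31 unigenes, with 13 for GOGAT, 14 for GS and 10 for TS, of which some are listed under both GS and TS. Of the 31, 23 passed the filter. A unigene that passed through a single stage had to differ between stages, so the counts of these 23 describe them only. In W against YG, 8 of the 23 were 2-fold or more higher and 2 were lower by this measure, and 2 of those higher and 1 of those lower were listed at 0 in the stage with less. Over all unigenes counted, 11.4% were higher and 9.11% lower in this comparison. In G against W, 5 were higher and 3 lower, of which 1 and 2 were listed at 0 in the stage with less, beside 10.2% and 11.8% of all unigenes. In G against YG, 8 were higher and 3 lower, of which 1 of the higher ones was listed at 0 in YG, beside 15.1% and 14.2% of all unigenes. The median log2 changes of the 23 were 0.32, 0.44 and 0.56, beside -0.49, 0.81 and 0.33 for the 5 AIDA unigenes and 0.00 in each comparison for all unigenes counted.

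**Figure D4:**
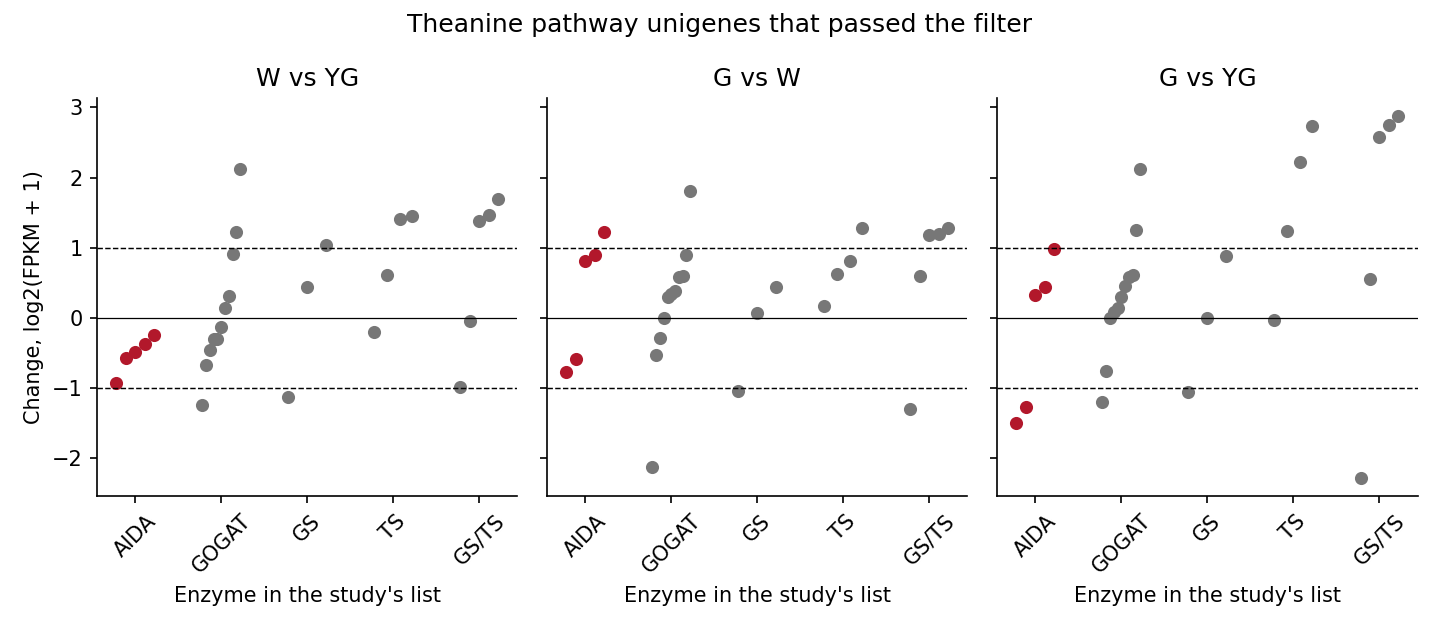
Change of log2(FPKM + 1) (y axis) at the first step (W vs YG), the second (G vs W) and over both (G vs YG) for each theanine pathway unigene that passed the filter, grouped by enzyme (x axis), with AIDA in red and GOGAT, GS, TS and unigenes listed under both GS and TS in grey. Dashed lines mark a 2-fold change, and the AIDA points lie between -0.92 and -0.24 in W vs YG and between -1.50 and 0.99 in G vs YG.

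The 18 GS or TS unigenes summed to an FPKM of 227 at YG, 339 at W and 633 at G, and the 13 GOGAT unigenes to 71.3, 81.4 and 117. The AIDA sum was therefore 0.603 times the GS or TS sum in YG, 0.278 times in W and 0.183 times in G. Against GOGAT it was 1.92 times in YG, 1.16 times in W and 0.995 times in G. These sums and ratios have the same limit as the AIDA sum, since pieces of the same transcript would be counted more than once. By the mean FPKM over the 3 stages, the most abundant GS or TS unigene was unigene58305, listed under both enzymes. It had an FPKM of 32.2 at YG, 106 at W and 243 at G. In YG it was below unigene13585 and unigene6286, also listed under both, at 104 and 40.6. In W and G unigene13585 had 100 and 153. By the same mean, the most abundant GOGAT unigene was unigene201, with 12.0, 29.5 and 55.7. In YG unigene201 was below the GOGAT unigenes unigene168460 at 16.5 and unigene24016 at 14.7.

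The 2 pathway unigenes nearest to each AIDA unigene in course were all listed for GOGAT, as were 11 of the 23 that passed the filter. For unigene81677 and unigene132868 the nearest was unigene24016, at distances of 0.26 and 0.30, with an FPKM of 14.7 at YG, 8.84 at W and 5.81 at G. The next was unigene7036, at 0.54 and 0.48, with 6.68, 4.58 and 3.56. For unigene89828, unigene4834 and unigene37160 the nearest was unigene168460, at 0.23, 0.40 and 0.63, with an FPKM of 16.5 at YG, 13.2 at W and 20.5 at G. It was followed by unigene92537, at 0.33, 0.53 and 0.64, with 6.98, 6.27 and 9.92. A unigene listed under both GS and TS, unigene13585, changed nearly as unigene92537 did. Its changes were -0.05 and 0.61 at the 2 steps, against -0.13 and 0.59 for unigene92537. For unigene89828, unigene4834 and unigene37160 the likeness was thus not particular to GOGAT. A fall at both steps, as in unigene81677 and unigene132868, was also seen in unigene6286, listed under both GS and TS. Its changes were -0.99 and -1.29, though it was not among the 2 nearest. These pathway unigenes share the stages, and the shared scaling of each stage, with the AIDA unigenes.

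Over the whole table, the sum of all FPKM values lay between 349550 at W and 382235 at YG. The 10 highest unigenes held 17.2% of it at YG, 9.62% at W and 8.66% at G. The AIDA unigenes made up 0.0358%, 0.0270% and 0.0314% of this sum at YG, W and G, the same order as their summed FPKM. Of the 70 different unigenes in the chlorophyll metabolism list, 53 had an FPKM of 1 or more at YG, 58 at W and 53 at G, where 28.8%, 29.6% and 28.1% of all unigenes did. The list was drawn from the assembly of these same leaves, so these counts are no test of the leaf label, which was not checked against independent markers.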

How the data were processed

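Poly(A) RNA, selected with oligo(dT) beads from total RNA of leaves, was sequenced in 9 libraries, 3 per stage. Per the paper's methods, reads were filtered, unigenes were assembled de novo with Trinity and cap3/PriceTI, and FPKM was computed with Cufflinks. The submitters' processing notes give Cufflinks 2.1.1, while the methods name an earlier version. The authors deposited FPKM already combined to 1 value for each stage. The aligner and the way libraries were combined are not given in the sources used here. The fragments behind a value are unknown, since the low values showed no repeated steps (at most 0.837% of 16839 weak unigenes in a 0.01-wide log2 bin of stage ratios), so no interval is given.

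Changes are differences of log2(FPKM + 1), later minus earlier stage, over the 78868 unigenes that reached an FPKM of 1 in any stage, and count as 2-fold at a size of 1. The planned limma fit needs values per library and was replaced by the planned description. The members and lists were chosen with earlier results of these data known. The unigenes named are the AIDA unigenes, the unigene with the highest mean FPKM per other enzyme and the 2 pathway unigenes nearest to each AIDA unigene. Named besides these are unigene13585 and unigene6286, for their YG level or their course. The chlorophyll list was counted in place of leaf markers. Of the member identifiers, 0 matched the RefSeq gene table, so no position is given. Alternatives were a pseudocount of 0.1, no filter, a minimum FPKM of 5, upper-quartile (75th percentile) and total scaling, and quantile normalization. The counting step was tested on simulated data. Python 3.11.15, pandas 2.3.3, numpy 2.4.6 and matplotlib 3.10.9 were used.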

Additional observations from a re-analysis of the deposited data

How the results depend on the processing

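The 18 log2 changes of the AIDA unigenes and of their sum kept their direction in all 72 values recomputed with another pseudocount or scaling, and 70 stayed on their side of the 2-fold line, moving by at most 0.17. The change of unigene37160 in G against YG passed the line with a pseudocount of 0.1 (1.02) and under total scaling (1.03), so that 1 AIDA unigene was then 2-fold higher in that comparison. The highest and lowest stages of the 5 unigenes and of their sum were the same under all 3 scalings. The background shares moved with the pseudocount and the filter. With a pseudocount of 0.1, 20.1% of unigenes were higher and 16.1% lower in W against YG, 17.9% and 21.3% in G against W, and 24.1% and 23.7% in G against YG. With no filter these were 4.98% and 3.99%, 4.49% and 5.18%, and 6.61% and 6.22%. A minimum FPKM of 5 gave 24.4% higher in G against YG, and left 0 other pathway unigenes 2-fold lower in W against YG and 1 in G against W.

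Leaving out replicates and a replicate block were not run. No paired analysis was possible because each stage has 1 combined value, which carries no replicate number. The paper gives the reads of each library, but the number of fragments behind each combined value is unknown. This and the spread between plants, which the combined values do not show, limit every difference given. Small ones such as W against YG in unigene37160 are limited most.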
